A study of Arabidopsis thaliana with 6 samples.

Results

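Flowering-time MADS genes encode transcription factors of the MADS-box family that set when an Arabidopsis shoot starts to make flowers. The 10 genes described here, SOC1, AGL24, SVP, FLC, FUL, CAL, FLM, AGL14, AGL19 and AGL42, were chosen by their gene identifiers among the 33341 genes of the count tables. The choice used no threshold on their measured values, but earlier results of these data were known when it was made. All 10 have an entry in each table, and 8 of them were among the 20013 genes with enough reads to be tested. RNA was sequenced from nuclei sorted for a green fluorescent nuclear envelope protein (NTF) out of Arabidopsis thaliana inflorescences with stage 5 flowers. There were 3 libraries with the label AP3 (coded X13, X16 and X74), from pAP1::AP1-GR ap1 cal plants that also carry pAP3:NTF, and 3 labelled AG (X14, X71 and X26), from pAP1::AP1-GR ap1 cal plants with iAG:NTF. Both groups are in the Ler background, carry the ap1-1 and cal-1 mutations, and were treated with dexamethasone (DEX), which sends the AP1-GR fusion protein into the nucleus and starts flower formation at the same time across the inflorescence. The AP3 promoter drives NTF in the AP3 plants, and the second intron of AG with a minimal promoter drives it in the AG plants, so a nucleus was collected for the activity of that sequence. No library measures wild-type flowers, and no group with AP1 function from the normal gene was included. The study speaks of biological replicates, whereas the labels do not say that libraries of a group came from separate plantings, so the p-values below measure the spread between these libraries.

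The library totals lay between 28808948 and 42089156 reads over genes, and organelle genes took between 2.39% and 4.56% of them. X74 and X71, one from each group, had 26717 and 26489 genes with a read, against 22923 to 23439 in the other 4 libraries. AP3 itself had 126, 207 and 239 CPM (reads per library size, adjusted by TMM factors) in X13, X16 and X74, against 58.1, 41.4 and 12.2 CPM in X14, X71 and X26, a log2 fold change (AP3 over AG) of 2.36 ± 0.50 (SE; adjusted p = 0.0216, edgeR), and this call was lost without X16, without X71 and with 4 libraries only. AG had 41.5, 75.4 and 94.3 CPM in the libraries labelled AP3, against 38.4, 41.2 and 14.2 CPM in those labelled AG, so the gene that names the AG group was no higher there (log2 fold change 1.17 ± 0.41, adjusted p = 0.141, edgeR). All 3 AP3 libraries were above all 3 AG libraries for AG, and it was called higher in AP3 by DESeq2 (adjusted p = 0.0289) and by edgeR with the filter of 1 read in any library (adjusted p = 0.0297). "AP3 libraries" and "AG libraries" below therefore refer to the labels.

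Flowering in Arabidopsis is held back by repressors such as FLC, FLM and SVP and set off by activators such as SOC1, AGL24 and FUL, which act in the inflorescence meristem. In a young flower, CAL and its close relative AP1 specify the flower meristem, and AP1, SVP and AGL24 also hold floral organ genes in check in the earliest flower stages. MADS proteins bind DNA as dimers and larger complexes, and genes of one clade often have partly shared roles.

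Of the 8 members tested, 5 were lower in AP3 than in AG libraries and none was higher. None of the 8 was higher at an unadjusted p under 0.05 in edgeR or called higher by DESeq2. The 5 were SOC1, AGL24, SVP, FUL and AGL42, with log2 fold changes between -0.97 (FUL) and -1.95 (AGL24). Among all genes tested, 6.40% were called lower and 1.36% higher at an adjusted p under 0.05 (edgeR's quasi-likelihood test, Benjamini-Hochberg). For 6 of the 8 members all 3 AP3 libraries lay below all 3 AG libraries, an order that 15.0% of all genes tested showed. The 6 are the 5 called and AGL19, which was near the limit of counting and passed the filter mainly through the AG libraries. AGL19 had 12 reads in both X74 and X26, so its order rests on library scaling. The median log2 fold change was -1.10 over the members tested and 0.03 over all genes tested. In RNA pooled from many nuclei, fewer nuclei that express a gene and less RNA per nucleus cannot be told apart. The count of 5 fell to 3 without X16, where SVP and FUL were lost. It fell to 4 without X71 and to 4 with the 4 libraries of the authors' normalized table, where SVP was lost. Calls over all genes fell as well, from 1554 of 20013 to 737 of 19953 without X16. They fell to 981 of 19761 without X71 and to 1022 of 19508 with those 4 libraries.

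**Figure D1:**
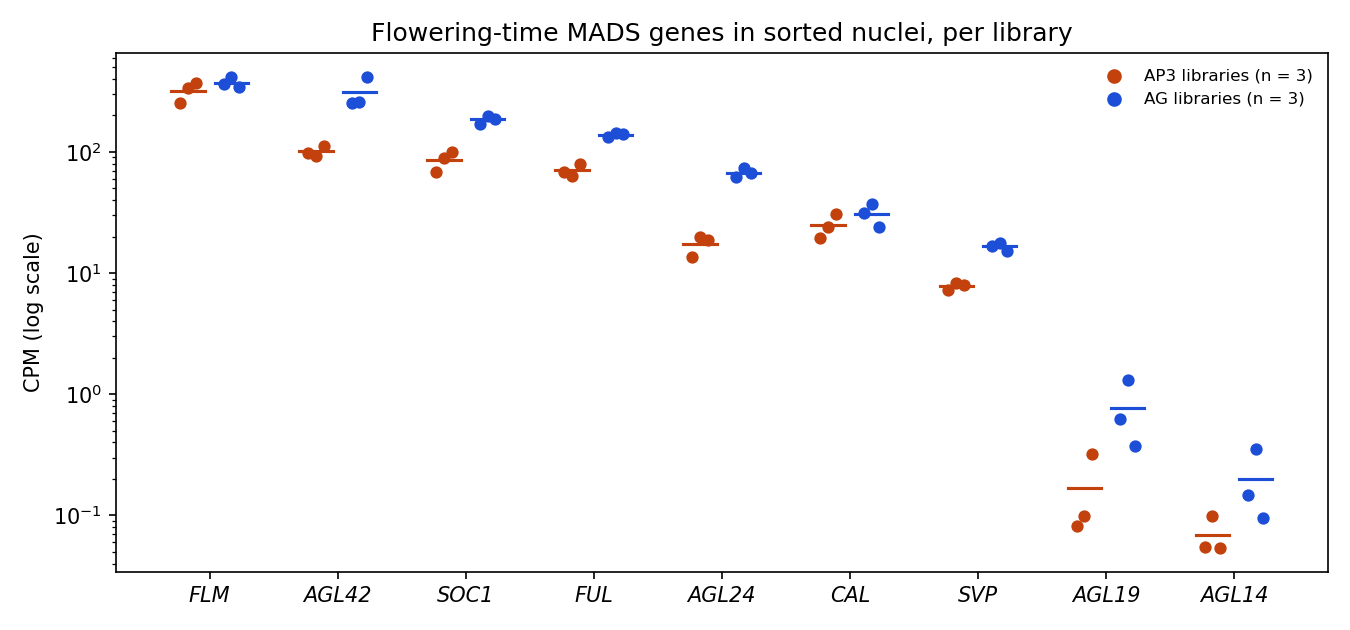
Level of each member except FLC in the 6 libraries, in CPM on a log axis, with 1 point per library and a line at the mean of 3, AP3 left and AG right. SOC1, AGL42, FUL, AGL24, SVP and AGL19 do not overlap between groups, whereas FLM, CAL and AGL14 do. For AGL19 this rests on library scaling, since X74 and X26 both have 12 reads. FLC has no read in any library and cannot be drawn on a log axis.

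Among the activators, SOC1 (AT2G45660, chromosome 2, 18807505 to 18811125, minus strand, TAIR10) collects signals from day length, cold, age and gibberellin and turns on LFY. SOC1 had 68.6, 89.1 and 99.6 CPM in X13, X16 and X74, against 171, 197 and 188 CPM in X14, X71 and X26. The means were 85.8 ± 15.8 CPM in AP3 and 185 ± 13.5 CPM in AG libraries (SD, n = 3 each), and every AP3 library was below every AG library. The log2 fold change of SOC1 was -1.11 ± 0.19 (SE; adjusted p = 0.00847, edgeR), and the adjusted p stayed between 4.52e-06 and 0.0484 under all alternatives. The nearest gene on one side of SOC1 is AGL6, a floral MADS gene 918 bp away, which was not called (log2 fold change 0.51, adjusted p = 0.505, edgeR).

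AGL24 (AT4G24540, chromosome 4, 12670897 to 12674106, minus strand) is an activator that works with SOC1 and favours inflorescence over flower identity. It had 13.5, 19.9 and 18.7 CPM in the AP3 libraries, against 61.9, 73.1 and 66.8 CPM in the AG libraries. The highest AP3 library thus held less than the lowest AG library by a wide margin, with means of 17.4 ± 3.39 and 67.3 ± 5.63 CPM (AP3 and AG, SD, n = 3 each). This was the largest change among the 5 members called, a log2 fold change of -1.95 ± 0.20 (SE; adjusted p = 0.00069, edgeR) or 3.87-fold lower in AP3. It was called under each alternative tried, with adjusted p between 8.24e-16 and 0.00829.

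FUL (AT5G60910, chromosome 5, 24502434 to 24506269, minus strand) acts in the inflorescence meristem beside SOC1 and later in the fruit wall. FUL had 68.8, 63.8 and 79.9 CPM in AP3 libraries, against 133, 143 and 139 CPM in AG libraries. Both groups were tight, at 70.8 ± 8.25 CPM in AP3 and 138 ± 4.91 CPM in AG libraries (SD, n = 3 each). Its log2 fold change was -0.97 ± 0.16 (SE; adjusted p = 0.00778, edgeR), and without X16 the adjusted p was 0.056.

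AGL42 (AT5G62165, chromosome 5, 24964646 to 24968607, plus strand) is a SOC1 relative that promotes flowering and is also known from the root quiescent centre. Its level was 98.0, 92.4 and 112 CPM in AP3 libraries, against 255.5, 256 and 418 CPM in AG libraries. X26 was far above the other AG libraries, which gave AG the larger spread (101 ± 10.1 CPM in AP3 and 309.9 ± 93.7 CPM in AG, SD, n = 3 each). With a log2 fold change of -1.62 ± 0.24 (SE; adjusted p = 0.0044, edgeR), AGL42 was 3.07-fold lower in AP3, and it stayed called under all alternatives (highest adjusted p 0.0313), those without X26 included.

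The SOC1 clade further holds AGL14 and AGL19 among the members, and AGL71 and AGL72, which are neighbours on chromosome 5 and promote flowering as well. Their coding sequences begin alike, and the first 60 coding bases of the Columbia reference (RefSeq, TAIR10.1, annotated by gene) are printed here to show how far reads of 1 gene could be told from those of another. Capitals mark bases that differ from SOC1, and AGL71 is shown from 30 bases after its annotated start codon, where it lines up with the others.
SOC1: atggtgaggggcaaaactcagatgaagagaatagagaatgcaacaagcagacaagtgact
AGL42: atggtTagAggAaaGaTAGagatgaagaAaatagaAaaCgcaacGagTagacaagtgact
AGL71: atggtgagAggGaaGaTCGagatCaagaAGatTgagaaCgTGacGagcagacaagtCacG
AGL72: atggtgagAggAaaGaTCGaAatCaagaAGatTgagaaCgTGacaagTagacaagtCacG
AGL14: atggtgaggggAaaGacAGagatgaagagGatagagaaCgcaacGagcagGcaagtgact
AGL19: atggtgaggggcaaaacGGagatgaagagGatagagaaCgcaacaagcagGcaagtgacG
The stretches lie at chr2:18810134-18810193 (minus strand) for SOC1, chr5:24965075-24965134 (plus) for AGL42, chr5:21087864-21087923 (minus) for AGL71, chr5:21084067-21084126 (minus) for AGL72, chr4:7143512-7143571 (plus) for AGL14 and chr4:12027362-12027421 (minus) for AGL19, each at the start of the part that encodes the MADS domain, which binds DNA. They differ from SOC1 at 6 (AGL19) to 17 (AGL72) of the 60 bases. The lines of AGL71 and AGL72 are closer to each other than to SOC1, and differences between genes other than SOC1 were not counted. Over the first 180 coding bases the identity to SOC1 was 85.6% for AGL14, 81.7% for both AGL42 and AGL19, 73.9% for AGL72 and 68.3% for AGL71. The authors counted uniquely mapped reads over the whole gene, introns included. The plants are Ler, and bases that differ from Columbia were not analysed here.

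AGL71 was lower in AP3 as well. It had 40.7, 39.5 and 54.1 CPM in AP3 libraries, against 167, 207 and 170 CPM in AG libraries, a log2 fold change of -2.02 ± 0.20 (SE; adjusted p = 0.000672, edgeR). AGL72 moved less, with 17.4, 18.3 and 16.3 CPM in AP3 against 27.0, 29.1 and 31.5 CPM in AG libraries (log2 fold change -0.75 ± 0.17, adjusted p = 0.027, edgeR). The AGL72 call was lost whenever any 1 library was left out, whereas the groups did not overlap. In reads, AGL42 over SOC1 was 1.43, 1.04 and 1.13 in AP3 libraries against 1.50, 1.30 and 2.23 in AG libraries, so the ratio overlapped between groups (2-sided exact permutation p = 0.2). The reads of FUL over those of SOC1 came to 0.84 ± 0.148 in AP3 and 0.749 ± 0.0285 in AG libraries (SD, n = 3 each; 2-sided exact permutation p = 0.5). With 3 libraries against 3 the smallest p such a test can give is 0.1.

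AGL19 and AGL14 were close to the limit of counting. AGL19 (AT4G22950, chromosome 4, 12023824 to 12028004, minus strand), an activator known from the response to long cold, had 3, 3 and 12 reads in AP3 libraries, against 17, 44 and 12 reads in AG libraries. These are 0.0824, 0.0986 and 0.321 CPM in AP3 and 0.627, 1.30 and 0.378 CPM in AG libraries. It entered the test with more than 10 reads in 1 AP3 and all 3 AG libraries, so it passed mainly through the group where it is higher. Its log2 fold change of -2.16 ± 0.79 (SE) was not called (adjusted p = 0.156, edgeR), and it depended on single libraries, at -3.05 without X74 and -1.54 without X71. AGL14 (AT4G11880, chromosome 4, 7142922 to 7147391, plus strand), best known from roots, had 2, 3 and 2 reads in AP3 libraries, against 4, 12 and 3 reads in AG libraries, and was left out of the test by the filter on low counts.

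Turning to the repressors, SVP (AT2G22540, chromosome 2, 9579647 to 9583901, plus strand) delays the floral transition together with FLC and FLM, and is the closest relative of AGL24. SVP had 7.22, 8.22 and 7.92 CPM in the AP3 libraries, against 16.6, 17.8 and 15.4 CPM in the AG libraries. Libraries of a group differed little, with an SD of 0.513 CPM in AP3 and 1.23 CPM in AG libraries (n = 3 each). The log2 fold change was -1.09 ± 0.21 (SE; adjusted p = 0.0136, edgeR), although the adjusted p was 0.061 without X16, 0.0588 without X71 and 0.101 with 4 libraries. SVP and AGL24 were both lower in AP3, by an estimated 2.13-fold and 3.87-fold. The reads of SVP over those of AGL24 were 0.534, 0.413 and 0.424 in AP3 libraries against 0.268, 0.244 and 0.23 in AG libraries. On the log2 scale this ratio, which does not depend on how libraries are scaled, was 0.88 higher in AP3, with no overlap between groups (2-sided exact permutation p = 0.1, the smallest possible). Such a p cannot fall under 0.05, so the test does not decide whether the factors differ.

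FLM (AT1G77080, chromosome 1, 28955483 to 28960234, plus strand), a repressor whose splice forms respond to temperature, had the highest mean CPM of the members in both groups, although AGL42 was above it in X26. FLM had 251, 340 and 371 CPM in AP3 libraries, against 361, 415 and 342 CPM in AG libraries, and the groups overlapped. The log2 fold change of -0.22 ± 0.21 (SE; adjusted p = 0.666, edgeR) was within the spread of the libraries. Splice forms were not analysed here, since the tables give 1 count per gene.

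FLM belongs to the FLC clade, whose genes MAF2 to MAF5 stand in a row on chromosome 5 and also repress flowering. MAF2 had 447, 593 and 733 CPM in AP3 libraries, against 661, 720 and 572 CPM in AG libraries (log2 fold change -0.14, adjusted p = 0.834, edgeR). MAF3 had 236, 354 and 440 CPM in AP3 and 372, 452 and 346 CPM in AG libraries (-0.18, adjusted p = 0.785, edgeR), and like MAF2 it changed sign without X13. The other pair of the row fell. MAF4 had 1.95, 1.32 and 2.46 CPM in AP3 libraries, against 17.9, 17.4 and 13.1 CPM in AG libraries, which is 8.40-fold lower in AP3 (log2 fold change -3.07 ± 0.32, adjusted p = 0.000777, edgeR). MAF5 had 4.26, 2.01 and 0.803 CPM in AP3 and 12.4, 7.76 and 11.4 CPM in AG libraries (-2.15 ± 0.54, adjusted p = 0.0431, edgeR), a call lost without X16, without any 1 of the AG libraries and with 4 libraries. Without X13 the log2 fold change of MAF5 was -2.90 (adjusted p = 0.0148, edgeR). Reads that fit more than 1 of these related genes were dropped by the authors, and how many were dropped per gene was not analysed here.

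**Figure D2:**
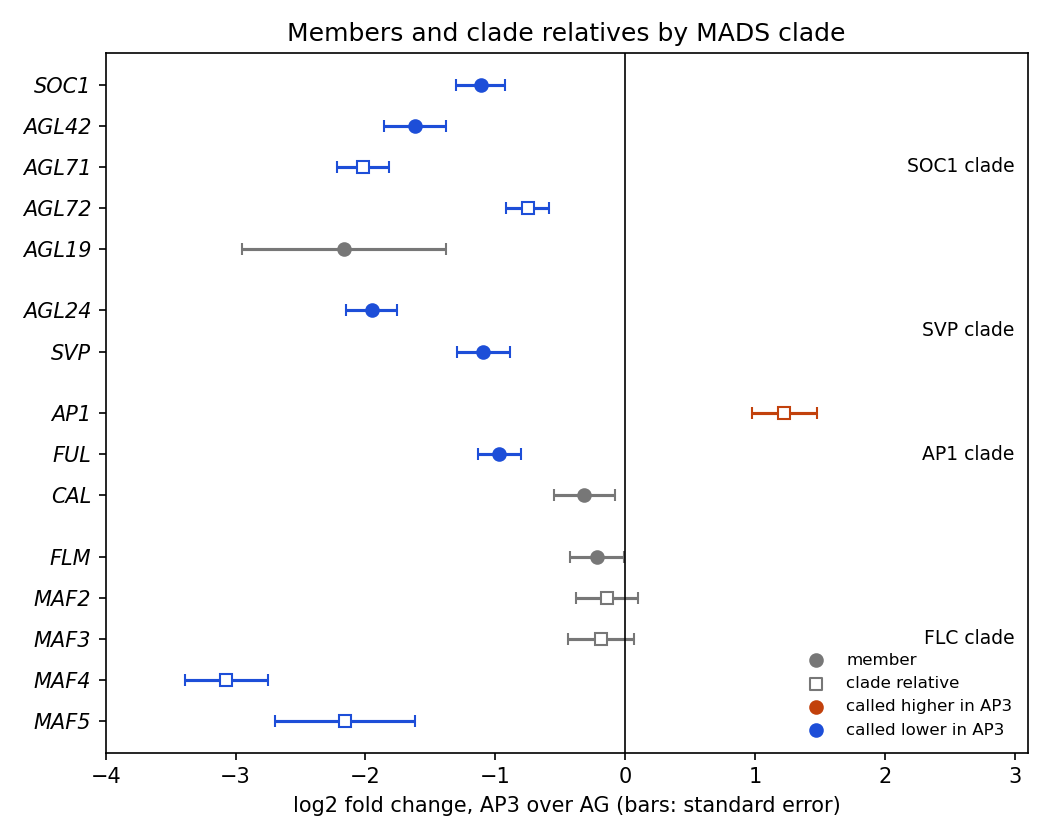
Log2 fold change (AP3 over AG) of the 8 members tested (circles) and 7 clade relatives (squares), ordered by clade, with bars for the standard error. The clade relative AGL79 is not drawn. SOC1, AGL42, AGL24, SVP and FUL lie at or below -0.97, CAL and FLM lie next to 0, and AP1 is the relative shown that was called higher, at 1.23.

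FLC (AT5G10140, chromosome 5, 3173382 to 3179448, minus strand), the repressor that prolonged cold switches off, had 0 reads in all 6 libraries. Its whole length of 6067 bp lies inside AT5G01675, an antisense RNA gene on the plus strand (3173371 to 3179600) that had 0 reads in all 6 libraries as well. The authors counted without regard to strand, and a read that fell in more than 1 gene was assigned to none. Of the 2055 genes that lie wholly inside another annotated gene, 2055 (100%) had no read in any library, against 1555 (6.78%) of the 22941 genes that overlap no other gene. The 0 reads of FLC are therefore no measure of its level, and no upper limit is given. No other member overlaps an annotated gene. Of the 20 genes that stand next to a member on either side, 15 were tested. By edgeR 0 of them were called and 4 passed at an unadjusted p under 0.05, whereas DESeq2 called 4. Over all 20013 genes tested, edgeR called 1554 and DESeq2 called 2435. Whether the neighbours differ from other genes was not tested. Among the neighbours the lowest adjusted p values were those of TRM25 beside AGL42 (log2 fold change -0.94, adjusted p = 0.0515, edgeR) and RLK1 beside FUL (-1.64, adjusted p = 0.06, edgeR). Both were named after their values were seen.

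**Figure D3:**
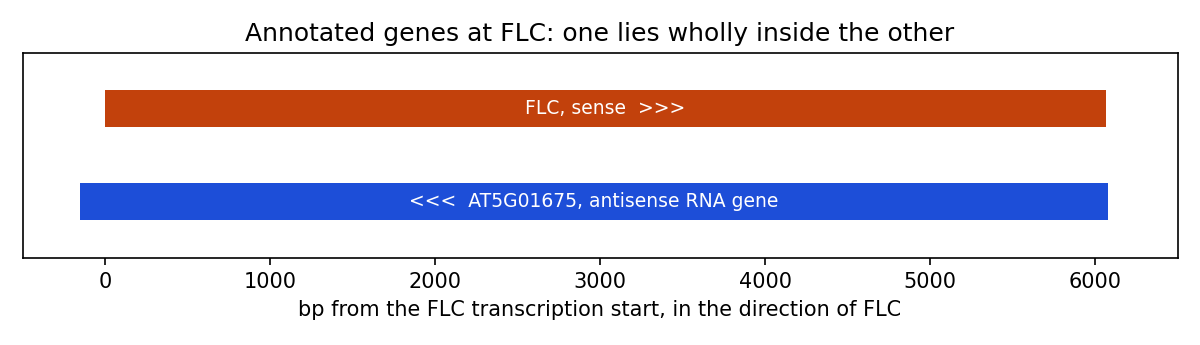
Extent of FLC and of the antisense gene AT5G01675, in bp from the FLC transcription start in the direction of FLC, as annotated in the count tables. FLC lies wholly within the antisense gene, which reaches from 152 bp before the FLC start to past the FLC end.

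CAL (AT1G26310, chromosome 1, 9099994 to 9103644, minus strand) acts with AP1 to specify the flower meristem, and all plants here carry its mutant allele cal-1, so its reads are RNA of the mutant gene. It had 19.4, 24.1 and 31.0 CPM in AP3 libraries, against 31.5, 37.1 and 23.9 CPM in AG libraries. The groups overlapped and CAL was not called (log2 fold change -0.31 ± 0.24, adjusted p = 0.5505, edgeR; 0.235 to 0.879 under the alternatives). AP1 was the only clade relative called higher, with 594, 683 and 632.5 CPM in AP3 libraries, against 344, 284 and 188 CPM in AG libraries (log2 fold change 1.23 ± 0.25, adjusted p = 0.018, edgeR). Reads of the mutant AP1 gene and of the AP1-GR transgene cannot be told apart in these tables, and the AP1 call was lost without X16, without X71 and with 4 libraries. FUL was thus lower and AP1 higher in AP3, while CAL gave no call. The remaining clade relative, AGL79, had 3 to 23 reads per library and was not called (log2 fold change 0.36, adjusted p = 0.892, edgeR).

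Per kb of gene, introns included, the order of levels in AP3 libraries was FLM (67.5 CPM per kb), AGL42 (25.5), SOC1 (23.7), FUL (18.5), CAL (6.8), AGL24 (5.42), SVP (1.83), AGL19 (0.04) and AGL14 (0.0154). AGL42 and SOC1, SOC1 and FUL, CAL and AGL24, and AGL19 and AGL14 overlapped between libraries, so their order is not certain. In AG libraries FLM (78.4 CPM per kb) and AGL42 (78.2) overlapped, followed by SOC1 (51.2), FUL (36.1), AGL24 (21.0), CAL (8.45), SVP (3.9), AGL19 (0.184) and AGL14 (0.0445) with no further overlap of neighbours. AGL24 thus stood below CAL on average in AP3 and above it in AG libraries. The median of all genes tested was 9.71 CPM per kb over the 6 libraries. FLM made up 45.0% of the summed level per kb of the members in AP3 libraries and 28.4% in AG libraries on average. The larger share of FLM in AP3 goes with a lower sum there, since its own mean was no higher in AP3. AGL42 made up 17.2% in AP3 and 28.0% in AG libraries. AGL24 took 3.625% in AP3 and 7.56% in AG libraries. In all, the members summed to 527 to 720 CPM in AP3 libraries and to 1031 to 1194 CPM in AG libraries.

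The genes that act on or beside the members were compared through lists. Of the 18 regulators of FLC, none was called and none passed at an unadjusted p under 0.05 in edgeR, and DESeq2 called none either, with a median log2 fold change of 0.07. The 16 photoperiod and florigen genes had 15 tested, with 2 lower, 1 higher and a median of -0.27. FT, the mobile signal that leaves send to the shoot tip to activate SOC1 and FUL, had 0.0824, 0.0986 and 0.455 CPM in AP3 libraries, against 2.29, 4.74 and 2.23 CPM in AG libraries (log2 fold change -3.82 ± 0.74, adjusted p = 0.0149, edgeR; 0.069 without X16). These are 3, 3 and 17 reads in AP3 libraries, so FT passed the filter mainly through the AG libraries, and its log2 fold change was -5.04 without X74 and -4.59 with 4 libraries. TFL1, a relative of FT that keeps the inflorescence growing, had 2.31, 2.01 and 1.61 CPM in AP3 against 19.9, 24.3 and 32.7 CPM in AG libraries (-3.70 ± 0.28, adjusted p = 0.000315, edgeR). PHYA, a photoreceptor for far-red light, was higher (0.80 ± 0.16, adjusted p = 0.0172, edgeR), a call lost without X13, X16, X14 or X71 and with 4 libraries (adjusted p between 0.0554 and 0.0847). This list held 1 call without X16.

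Of the 5 SPL genes of the age pathway only 2 were tested and neither was called by edgeR or DESeq2, while 1 passed at an unadjusted p under 0.05 in edgeR and 1 was called with the library code as a block. SPL5 and SPL15, like FLC, lie wholly inside another gene and had no read. SPL3, also untested, lies inside another annotated gene over 97.6% of its length. Its 4 to 11 reads per library are therefore limited by the counting rule too. Among 9 other floral repressors 2 were lower and 1 was higher, with a median of 0.05. TOE1 (-1.78 ± 0.33, adjusted p = 0.0125, edgeR) and TOE3 (-1.34 ± 0.32, adjusted p = 0.0338, edgeR), AP2-like repressors under control of a microRNA, were lower. The TOE1 call was lost without X16 (adjusted p = 0.0673, edgeR). That of TOE3 was lost without X74, X14, X71 or X26, with 4 libraries and with the library code block (adjusted p between 0.0573 and 0.143, edgeR). AGL15, a MADS gene of embryos that can delay flowering, was higher, with 53.6, 74.4 and 71.4 CPM in AP3 libraries, against 16.6, 16.1 and 5.44 CPM in AG libraries (2.39 ± 0.38, adjusted p = 0.00635, edgeR).

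Of the 11 floral identity genes 7 were called higher and none lower, with a median log2 fold change of 1.50. The 7 include AP1, which is also the clade relative called higher above. At an unadjusted p under 0.05 in edgeR 9 were higher and 1 was lower. The lower 1 is SEP4, with all AP3 libraries below all AG libraries (-0.39, adjusted p = 0.1825, edgeR), named after its values were seen. The highest were UFO, a co-factor of LFY (3.61 ± 0.31, adjusted p = 0.00041, edgeR), AP3 itself, SEP3 (1.76, adjusted p = 0.0337, edgeR) and SEP2 (1.61, adjusted p = 0.0199, edgeR), MADS partners of the floral organ genes. The SEP3 call was lost without X16, X74 or X71 and with 4 libraries, and that of SEP2 without X16 and with 4 libraries. LFY, named above as a gene that SOC1 turns on, was higher in AP3 (1.18 ± 0.24, adjusted p = 0.0186, edgeR), whereas SOC1 was lower. The LFY call was lost without X16, without X71 and with 4 libraries, and LFY was named after its values were seen. The count of 7 floral identity genes fell to 1 without X16, to 3 without X71 and to 2 with 4 libraries. It was 6 to 8 when any other library was left out, and 9 by DESeq2. Calls over all genes fell in those fits too, from 1554 to 737 without X16, 981 without X71 and 1022 with 4 libraries. The count of members called was 3 without X16, 4 without X71 and 4 with 4 libraries.

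Markers of other tissues moved between the groups as well. Of 10 vascular markers, 9 were called lower in AP3, all 10 had every AP3 library below every AG library, and the median log2 fold change was -2.62. Their summed level ran from 150.8 to 206.5 CPM in AP3 libraries and from 524.9 to 658.7 CPM in AG libraries, and none of the 10 was at 0 in any library. The lowest log2 fold changes among them were those of SUC2 (-3.90) and APL (-3.86) of the phloem, WOX4 (-3.79) of the cambium and VND7 (-3.63) of the xylem. Their order is not certain, since SUC2 ran from -4.63 to -3.08 and VND7 from -4.73 to -3.28 under the alternatives. VND7 (6, 3 and 16 reads in X13, X16 and X74) and XCP1 (16, 6 and 10 reads) passed the filter mainly through the AG libraries. The 5 epidermis markers had 3 called higher, among them TRY (1.79) and PDF1 (1.64), and all 5 had every AP3 library above every AG library. They summed to 3508 to 4269 CPM in AP3 and to 828.6 to 1952 CPM in AG libraries. PDF1 gave most of these sums, with means of 3272 CPM in AP3 and 1053 CPM in AG libraries. Mesophyll and cortex markers had 1 of 5 called, JKD, which was lower, and their sums of 1272 to 1706 CPM in AP3 and 1318 to 1694 CPM in AG libraries overlapped. Most of that sum was RBCS1A (1198 CPM in AP3 and 1134 CPM in AG libraries on average), while CHAL, not called, lay below in every AP3 library (-1.17, adjusted p = 0.0539, edgeR). Of the 5 markers of dividing cells 1, CYCB1-1, was called higher, and the sums were 2388 to 2438 CPM in AP3 and 1446 to 1806 CPM in AG libraries. CDC20.2, which was not called (adjusted p = 0.206, edgeR), gave most of these sums, with means of 2008 CPM in AP3 and 1354 CPM in AG libraries. The calls of VND7, CYP708A3, XCP1, PDF1, ATML1, JKD and CYCB1-1 were each lost in at least 1 alternative. Their highest adjusted p over the edgeR and DESeq2 alternatives lay between 0.0565 (VND7) and 0.134 (ATML1). Those of TRY and of the other vascular markers called were kept throughout. RBCS1A, CHAL and CDC20.2 were named after their values were seen. The part of these cell types in the lower levels of SOC1, AGL24, SVP, FUL and AGL42 was not tested.

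**Figure D4:**
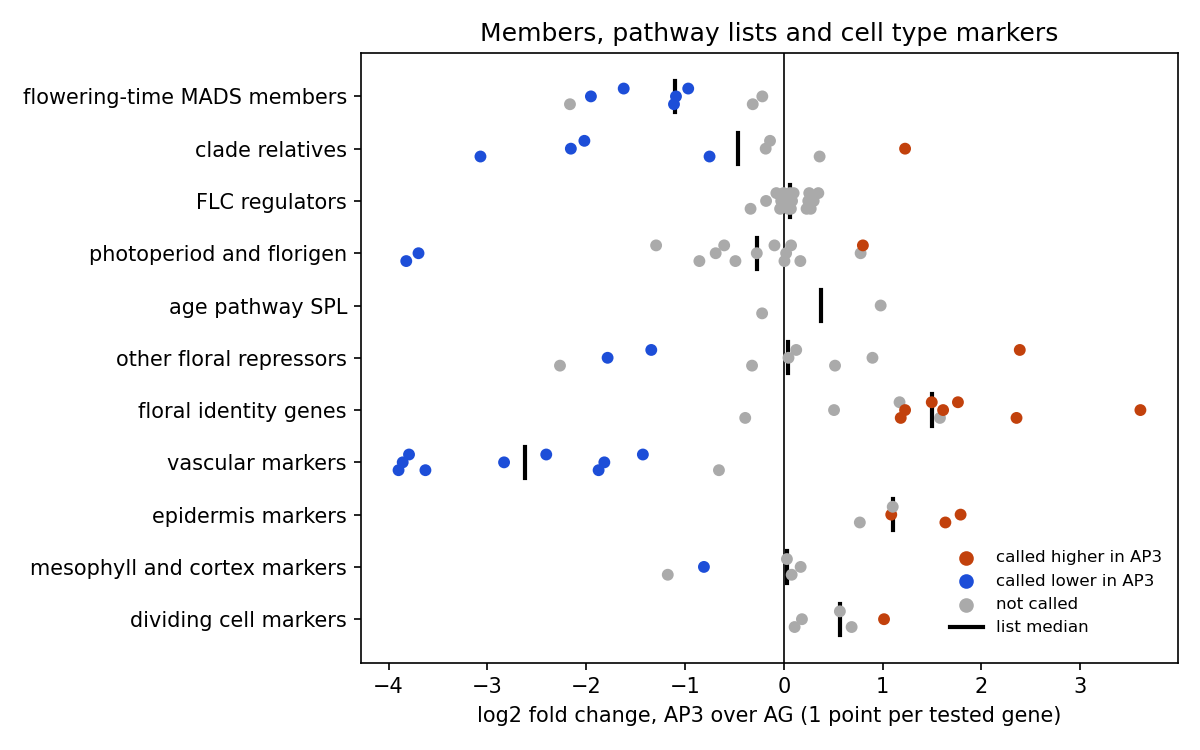
Log2 fold change (AP3 over AG) of every tested gene of the members, of 6 lists of related genes and of 4 lists of cell type markers, with a bar at each median. The medians are -1.10 for the members, 0.07 for FLC regulators, 1.50 for floral identity genes, -2.62 for vascular markers and 1.10 for epidermis markers.

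For each member called, the genes with the most similar profile were sought by the root mean square difference of centred log2 CPM over the 6 libraries, among the 14369 genes whose log2 CPM averaged 3 or more. A value of 0 would mean the same relative level in every library. For SOC1 the closest were OPT4 (0.0694), TCP15 (0.0929) and AT1G70820 (0.0941), and for AGL24 they were AT2G42690 (0.08255), AT1G70550 (0.098) and AT1G64625 (0.122). CLE41 (0.0699), WRKY2 (0.0755) and ERF38 (0.083) came closest to SVP, and AT1G53560 (0.0667), AT5G49280 (0.076) and AT1G28260 (0.0784) to FUL. The profile of AGL42, with its high level in X26, was matched best by BHLH32 (0.125), which is TMO5 of the vascular list, SCPL7 (0.126) and AT5G38565 (0.133).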

How the data were processed

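Nuclei were sorted on green fluorescence and DAPI, and libraries were made with SMART-Seq v4. The authors trimmed reads, mapped them to TAIR10 with STAR 2.7.0b, kept unique matches and deposited an unnormalized count per gene. According to the headers of the deposited files, featureCounts 1.6.0 counted read pairs over whole genes, introns included, without strand, and the methods name another version. Reads of unspliced RNA are thus in the values, and genes that overlap lose reads. A further deposited table holds variance stabilized values on a log2 scale (DESeq2 1.24.0) of 18761 genes in 4 libraries, X13, X16, X14 and X26.

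Genes of the organelles were removed, as were genes that did not exceed 10 reads in 2 or more of the 6 libraries. Groups were compared with the quasi-likelihood test of edgeR 4.0.16 (under R 4.3.3), TMM factors and Benjamini-Hochberg adjustment over all genes tested, and an adjusted p under 0.05 was called. Standard errors were back-calculated from the F statistic. Ratios of reads were tested by exact permutation. Similar profiles used log2 CPM with a prior count of 2. Of 33341 genes, 33044 matched the TAIR10.1 annotation, 33043 of them with the same start and end.

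The members were set by identifier, and members, lists and tests were chosen with earlier results of these data known. All members are named, and so are the clade relatives AP1, AGL71, AGL72, AGL79 and MAF2 to MAF5, and AP3 and AG. Of each list the called genes (at most the 4 largest changes) are named, and the 3 genes most like each called member. Alternatives were DESeq2 1.42.0, RLE factors or library totals in place of TMM, 2 other filters, organelle genes kept, the 4 libraries of the normalized table, the library code as a block and leaving out each library in turn. Adding 1 read to each count was tried for the ratios.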

Additional observations from a re-analysis of the deposited data

How the results depend on the processing

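No paired analysis was possible because the labels give the libraries no replicate numbers, and the file headers share only 1 number between the groups, that of X74 and X71. The library code block puts X74 and X71 together, X13, X14 and X16 together, and X26 alone. No label names these sets as batches, and X26, alone in its block, adds nothing to the group difference in that fit. The number of members called lower was 5 under DESeq2, RLE factors, library totals, both other filters, organelle genes kept and the library code block, was 4 with the 4 libraries of the normalized table, and ran from 3 to 5 when 1 library was left out. Of 111 values of the 8 members tested, 107 kept their direction and their side of the threshold, and 4 kept the direction only (SVP without X16, without X71 and with 4 libraries, FUL without X16). The 111 include values of CAL, FLM and AGL19, which had no call to lose. They also include fits that differ little from the main fit, such as RLE factors or organelle genes kept. Over all genes, 1554 were called, against 2435 by DESeq2, 1022 with 4 libraries and 737 to 1480 when 1 library was left out. With 4 libraries, 2 of the clade relatives and 2 of the floral identity genes were called, against 5 and 7 with all 6. When 1 library was left out these counts ran from 2 to 4 for clade relatives, 1 to 3 for photoperiod and florigen genes, and 1 to 8 for floral identity genes. The library code block called 1 SPL gene, against 0. Among 20 other named genes, 42 of 279 values lost the call, 2 gained it and 2 changed sign, both without X13. Leaving out 1 library gave log2 fold changes of -0.324 to 0.04 for MAF2 and -0.403 to 0.041 for MAF3. The cause was not tested. Depth limits AGL14 and AGL19, and the counting rule limits FLC.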

Other observations

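The authors' table of variance stabilized values, which no test above uses, holds 7 of the members. Its AP3 minus AG difference, over 2 libraries of each group, was -1.13 for SOC1, -1.61 for AGL24, -0.68 for SVP, -0.97 for FUL, -1.71 for AGL42, -0.28 for CAL and -0.27 for FLM. These libraries are among the 6 tested, so the values are not independent of the fold changes.

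A CArG box, the DNA motif that MADS dimers bind, was searched on both strands from 250 bases before to 50 bases after the annotated start. Only the strict form CCWWWWWWGG, where W is A or T, was counted. It was found in 635 of 20012 windows of genes tested (3.17%), in 18 of the 1281 genes called lower (1.41%) and in 5 of the 273 called higher (1.83%). None of the 10 members or their 8 clade relatives had the strict form in this window. Other forms of the box, and sites further from the start, were not searched.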
